A study of Mus musculus with 9 samples.

Results

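Medulloblastoma of Ptch1 knockout (KO) mice was compared with wildtype cerebellum in 3 tumour samples and 3 wildtype samples, taken by their titles from a series of 9. One Affymetrix Mouse Gene 1.0 ST array was run per sample from total RNA. On it, short probes along a gene are summarised as a probe set with 1 log2 value. A gene was read by a probe set annotated to that gene alone, and by the brightest of several over all 9 arrays. Of 35556 probe sets, 21789 named 1 gene, which gave 19938 genes, and 16323 of these were bright enough to be tested.

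The tumours were labelled medulloblastoma tumor with genotype Ptch1KO, and the controls cerebellum with genotype wildtype. Tissue of both groups came from mice at postnatal day 13 (P13). The other 3 arrays held P13 cerebellum of genotype SufuKO, which lacks another brake on the same pathway and is used here to show where the tumours differ from it. The labels give no strain, no Cre driver or other transgene, no deleted part of Ptch1 and no sex. No label says that each sample is another animal, and p-values cover the spread of these samples, some of which may be technical.

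Ptch1 is the receptor for Hedgehog ligands and, without ligand, holds the membrane protein Smo inactive. Ligand binding or loss of Ptch1 frees Smo, which acts at the primary cilium and lets the Gli transcription factors switch on their targets. In the young cerebellum, Sonic hedgehog from Purkinje cells keeps granule neuron progenitors of the outer layer dividing, and Hedgehog medulloblastoma arises from this lineage.

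Array medians ranged from 6.72 to 6.79 (log2) over the 9 arrays, and 25th percentiles from 5.32 to 5.41. Xist, the RNA of the inactive X chromosome, read 11.76, 11.59 and 11.64 on the wildtype arrays and 5.61, 11.97 and 5.83 on the tumour arrays, so 3 of 3 wildtype and 1 of 3 tumour arrays had the high level of females and the effects of sex and genotype partly overlap. Tumour replicate 3 lay nearer to the wildtype than the others did. Its correlations with the 3 wildtype arrays over genes were 0.940 to 0.947, against 0.911 to 0.922 for replicates 1 and 2. Counts are therefore also given with a sex covariate taken from Xist and without tumour replicate 3. A further setting kept only the arrays with high Xist. It left 1 tumour array, and its spread came from the 3 wildtype arrays alone. Its p-values hold no spread among tumours, so a call lost there does not show a dependence on sex.

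Differences between tumours and wildtype were widespread. With limma and Benjamini-Hochberg adjustment over the tested genes, 3606 genes (22.1%) were higher and 4038 (24.7%) lower at an adjusted p under 0.05. These shares are the background for every gene list described here, and the median difference over every tested gene was -0.01 (log2). Lists and members were chosen with earlier results of these data known. A count set against these shares is therefore description and not an independent test. The 49 lists held 965 entries, of which 884 were tested, 11 were too dim and 70 had no probe set of their own. The counts were 3550 and 3949 with the sex covariate, and 3711 and 3949 without tumour replicate 3. Of the genes called, 560 were higher and 657 lower by at least 1 log2 unit, which is a change of at least 2-fold. The largest sizes were skewed upwards, with 127 genes higher and 50 lower by at least 2 log2 units, and 18 against 2 by at least 3. Of the genes tested, 26.4% had every tumour array above every wildtype array and 30.2% had every tumour array below.

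Replicate 3 was the lowest of the tumours in 519 of the 560 genes with a large rise and the highest in 559 of the 657 with a large fall. In the genes that rose by at least 1, the median shift from the wildtype mean was 1.55, 1.57 and 1.23 for replicates 1, 2 and 3. In those that fell by at least 1, it was -1.44, -1.39 and -1.15. The median SD over all tested genes was 0.0861 in the tumours and 0.0789 in the wildtype.

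**Figure D1:**
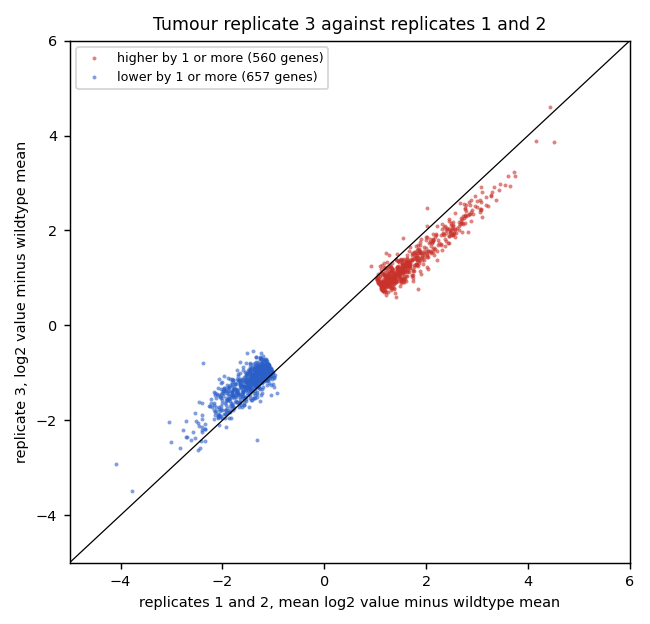
Shift of tumour replicate 3 from the wildtype mean (log2, vertical axis) against the mean shift of tumour replicates 1 and 2 (log2, horizontal axis), 1 point per gene called with a difference of at least 1; the line marks equal shifts. The red points (560 genes higher) lie mostly below the line and the blue points (657 genes lower) mostly above it.

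Genes were ranked by difference among called genes whose tumour and wildtype arrays did not overlap, with placeholder names left out. The 12 that rose furthest included genes of dividing cells and of granule neuron progenitors. The largest rise, of the protamine gene Prm1, belonged to neither set. Atoh1, the bHLH factor that granule neuron progenitors depend on, read 6.65, 6.56 and 6.25 (log2) on the 3 wildtype arrays and 10.31, 9.97 and 9.42 on the 3 tumour arrays. The groups lay apart, with replicate 3 the lowest tumour, and the gene rose 10.7-fold. Its log2 difference was 3.41 ± 0.20 (limma SE, 3 tumour and 3 wildtype arrays), with a limma adjusted p of 5.66e-08. This SE takes the spread from all 9 arrays, Sufu KO included, and draws it towards that of other genes. It is not the spread of the tumours and wildtype alone. All later differences are given in this way, as log2 ± SE. Sfrp1, a secreted Wnt modulator, read 8.08, 7.41 and 7.45 in the wildtype and 11.26, 11.24 and 10.79 in the tumours, a 10.9-fold rise. Mcm6, a subunit of the helicase that opens DNA for replication, rose 10.2-fold and Top2a, which untangles chromosomes, 9.83-fold. A dimmer probe set of Top2a, with a mean of 4.05, read 0.27 (adjusted p = 0.0920). Bub1, a kinase of the spindle checkpoint, rose 9.48-fold, Knl1, a scaffold of the kinetochore, 9.13-fold, and Arhgap11a, a gene of dividing cells, 8.75-fold. Prm1, Olig3, Cdk6, Mki67 and Kif11 complete the 12 largest rises, at 4.49, 4.30, 4.07, 3.56 and 3.54 log2 units.

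The 12 genes that fell furthest in the same ranking included genes of mature neurons and of glia. Xist, which overlapped between the groups, was not ranked. Faim2, an inhibitor of cell death in neurons, read 10.08, 10.39 and 10.23 in the wildtype and 7.25, 7.65 and 8.02 in the tumours, a 6.03-fold fall (adjusted p = 1.14e-07). Mag, a myelin glycoprotein, fell 6.05-fold, from 10.76, 11.000 and 10.82 to 8.13, 8.16 and 8.51. Every tumour array lay below every wildtype array for both, as the ranking required. Penk, the precursor of enkephalin peptides, fell 5.77-fold, Shisa6, an auxiliary subunit of AMPA receptors, 5.85-fold, and Kndc1, a brain guanine nucleotide exchange factor, 5.96-fold. Cntn4, an axonal adhesion molecule, fell 5.60-fold and Olfm3, a secreted olfactomedin of the brain, 5.60-fold. Fam107a, Klk1b22, St8sia5, Kcnip4 and Cbln3 complete the 12 largest falls, at -3.70, -3.69, -2.82, -2.75 and -2.71 log2 units. In total RNA of a tissue, fewer cells of a type and less of an RNA per cell cannot be told apart, which holds for every gene here.

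**Figure D2:**
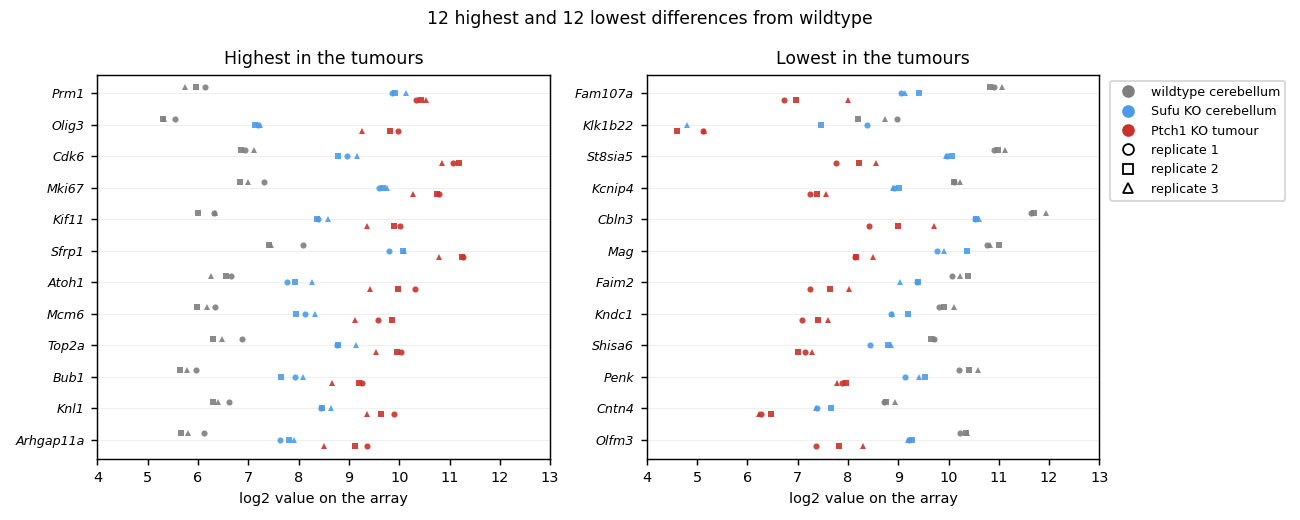
Log2 value (horizontal axis) on each of the 9 arrays for the 12 genes with the largest rises (left) and the 12 with the largest falls (right) from wildtype to tumour, 1 point per array, with placeholder gene names left out. The 24 genes were picked from called genes whose tumour and wildtype arrays do not overlap, so that gap was fixed by the choice. Klk1b22 is spread over the Sufu KO arrays.

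The Hedgehog pathway was read from the outside of the cell inwards. Of 15 ligands, receptors and release proteins listed, 14 were tested: 8 were higher and 2 lower, with a median difference of 0.30 log2 units. Ptch1 itself read 10.25, 10.26 and 10.28 in the wildtype and 11.24, 11.43 and 11.17 in the tumours, 1.02 ± 0.08 higher (log2 difference, SE). The probes may lie outside the deleted part, so the level is no check of the genotype. Hhip, a decoy receptor that mops up Hedgehog ligands, read 7.03, 7.37 and 7.24 against 8.47, 8.98 and 8.38 and rose 2.63-fold (adjusted p = 5.31e-06). Gpc3, a glypican that competes with Ptch1 for ligand, rose 2.83-fold, from 6.50, 6.50 and 6.37 to 8.06, 8.28 and 7.53. Smo rose on all 3 tumour arrays, which read 9.74, 9.59 and 9.33 against 8.39, 8.24 and 8.30.

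The coreceptors that help Ptch1 bind ligand did not move as a block. Boc was higher by 0.59 ± 0.09 (adjusted p = 0.000138) and Gas1 by 0.37 ± 0.10 (adjusted p = 0.00783), with replicate 3 at 8.13 for Gas1, close above the wildtype values of 8.01, 8.05 and 8.001. Cdon, the other coreceptor, was lower at -0.22 ± 0.08 (adjusted p = 0.0398). Its call was lost in 8 of 15 alternatives, including the sex covariate (adjusted p = 0.0744), with adjusted p from 0.0345 to 0.224. Of the proteins that make or release active ligand, Disp1 was higher by 0.36 ± 0.07 and the acyltransferase gene Hhat by 0.24 ± 0.07; Hhat lost its call on the arrays with high Xist alone (adjusted p = 0.0716). A dimmer probe set of Disp1 read 0.08 (adjusted p = 0.601).

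Among the 3 ligands, Shh was lower in the tumours, at 6.97, 6.81 and 6.94 against 7.14, 7.30 and 7.17, a difference of -0.30 ± 0.07 (adjusted p = 0.00543). The other ligands, Ihh (0.02 ± 0.09) and Dhh (-0.04 ± 0.06), did not pass, nor did Scube2 (0.06 ± 0.08), a ligand release factor, and Lrp2 (0.02 ± 0.06), an endocytic receptor. Markers of Purkinje cells, the source of Shh in this tissue, were lower in the same tumours (15 of 19 tested, with a summed linear level of 14509 to 15968 against 30395 to 31794 in the wildtype). Their part in the level of Shh was not tested.

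Inside the cell, 12 of 23 tested transduction genes were higher and 5 lower, with a median of 0.24 (25 were listed). The 3 Gli factors, which carry the signal to the genome, rose. Gli1 read 7.52, 7.29 and 7.28 against 9.24, 9.42 and 8.86 and Gli2 7.32, 7.34 and 7.05 against 8.96, 8.81 and 8.38, differences of 1.81 ± 0.12 and 1.48 ± 0.13. Gli3, whose main product is a repressor, read 6.62, 6.56 and 6.48 against 7.25, 6.92 and 6.95, a rise of 0.49 ± 0.09 (adjusted p = 0.000480). Sufu, which binds and restrains the Gli proteins, rose by 0.92 ± 0.08 and read 8.07, 8.14 and 7.99 on the arrays labelled SufuKO against 9.91, 9.92 and 9.81 in the tumours. Spop, an adaptor of a ubiquitin ligase for Gli proteins, was lower at -0.38 ± 0.08.

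Several genes that act on Smo or Gli at the cilium rose. Evc and Evc2, partners of Smo in a zone at the base of the cilium, were higher by 0.93 ± 0.11 (adjusted p = 1.76e-05) and 0.42 ± 0.10 (adjusted p = 0.00328). Gpr161, a ciliary receptor that raises cyclic AMP and restrains the pathway, was higher by 0.73 ± 0.12 (adjusted p = 0.000230). Kif7, a kinesin of the ciliary tip that acts on Gli proteins, was higher by 0.24 ± 0.07 (limma adjusted p = 0.0192). Its call was lost with the sex covariate (adjusted p = 0.133) and in 3 other alternatives. Iqce (0.18 ± 0.08), which anchors Evc and Evc2, passed without tumour replicate 3 (adjusted p = 0.00853) but not in the full set (adjusted p = 0.0783).

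Subunits of protein kinase A, which marks Gli proteins for processing, went in opposite directions. The regulatory subunit gene Prkar2b read 8.36, 8.53 and 8.40 in the tumours against 7.71, 7.29 and 7.52 and was higher by 0.92 ± 0.12. Prkar1a, another regulatory subunit, was lower at -0.40 ± 0.07 and the catalytic subunit gene Prkacb at -0.31 ± 0.07. Among other kinases of the pathway, Dyrk2 (0.71 ± 0.09), Stk36 (0.56 ± 0.07) and Csnk1e (0.50 ± 0.07) were higher and Ulk3 (-0.48 ± 0.08) lower. Fbxw11, a receptor of the ligase that processes Gli proteins, was lower at -0.37 ± 0.09. Its paralog Btrc (-0.18 ± 0.07) did not pass (adjusted p = 0.0578), and neither did Gsk3a, Gsk3b, Csnk1a1 and Csnk1d, with differences between -0.11 and 0.03.

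Genes of the primary cilium shifted less. Of 38 tested, 14 were higher and 7 lower, with a median of 0.14 and no difference beyond 0.71 log2 units. The genes with the smallest p were Cep290, of the gate at the ciliary base (0.61 ± 0.08), Dync2h1, the motor of retrograde transport (0.55 ± 0.08), Ift74, of the transport train (0.57 ± 0.09), and Bbs5, of the membrane coat that sorts ciliary cargo (0.71 ± 0.10). Ift20 (-0.38 ± 0.07), Bbs4 (-0.36 ± 0.09) and Inpp5e (-0.35 ± 0.07), a lipid phosphatase of the ciliary membrane, were lower. The count of lower members dropped to 4 without wildtype replicate 2, without tumour replicate 1 and on the arrays with high Xist alone.

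The target list held the largest Hedgehog differences, that of Cdk6 foremost, but it overlaps other lists. Gli1, Ptch1 and Hhip are also counted among the receptors or transduction genes. Cdk6, Ccnd1, Ccnd2 and Mycn are also on later lists of G1 or Myc genes. Of 15 tested of 17 listed, 10 were higher, 9 of them by at least 1 log2 unit, and 3 were lower, with a median of 1.40 and a range from -1.42 to 4.07. Ccnd1, the G1 cyclin of growth factor signals, read 8.92, 8.79 and 8.84 in the wildtype and 10.57, 10.74 and 10.14 in the tumours and rose 3.11-fold (adjusted p = 4.96e-07). Foxm1, a transcription factor of the mitotic genes, read 6.26, 5.72 and 5.72 against 8.67, 8.65 and 8.21 and rose 6.10-fold. The groups lay apart for both. Bmi1, a polycomb gene, rose by less (0.39 ± 0.08, adjusted p = 0.00160).

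The other targets fell or did not pass. Hsd11b1, an enzyme of glucocorticoid activation, read 7.99, 8.14 and 8.19 in the wildtype and 6.69, 6.61 and 6.76 in the tumours and was 2.68-fold lower. Igf2 was lower at -0.53 ± 0.10 and the homeobox gene Nkx6-2 at -0.45 ± 0.10. Bcl2, an inhibitor of cell death, stood at 0.01 ± 0.07 (adjusted p = 0.920), with the tumours at 8.45, 8.46 and 8.44 inside the wildtype range of 8.52, 8.45 and 8.35. Foxf1, a forkhead gene of gut and lung mesenchyme, stood at -0.17 ± 0.09 (adjusted p = 0.138), and a second probe set of it was lower at -0.31 (adjusted p = 0.00127).

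**Figure D3:**
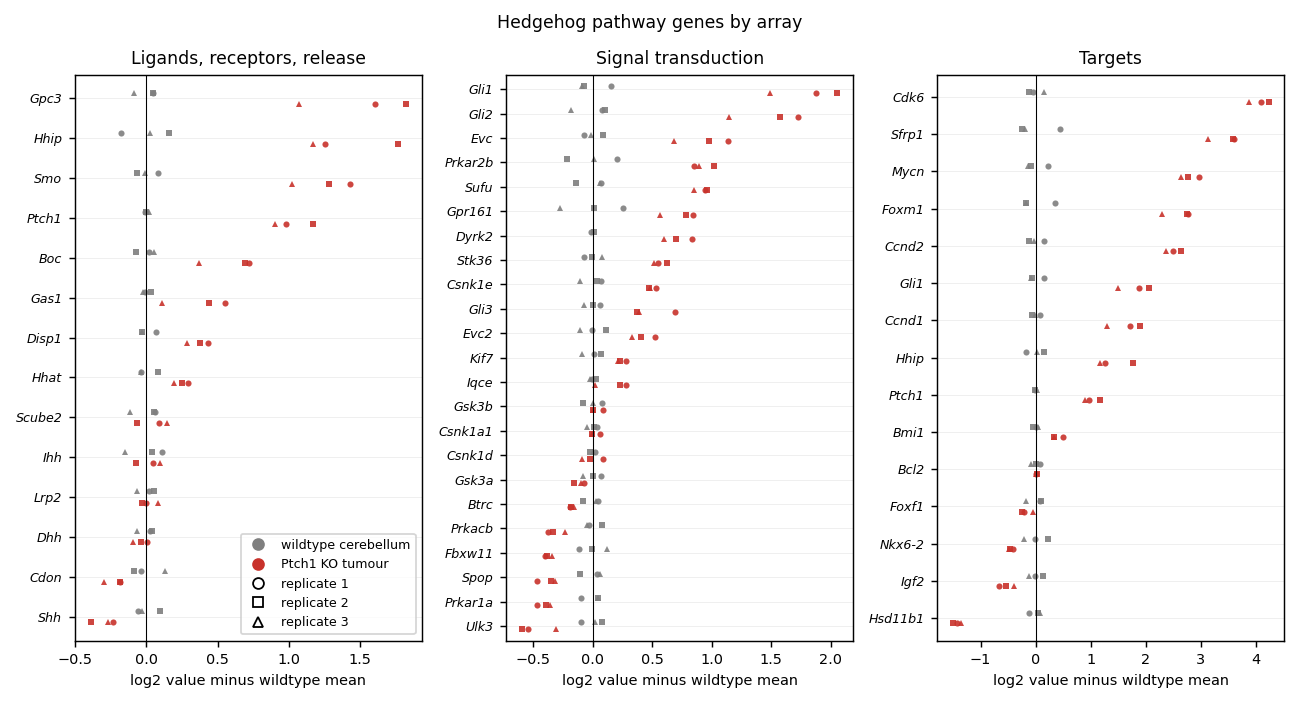
Log2 value minus the wildtype mean (horizontal axis) on each wildtype array (grey) and tumour array (red) for the tested Hedgehog ligands, receptors and release proteins (14), transduction genes (23) and targets (15), with marker shape for the replicate. The axes differ between panels: the targets span -1.42 to 4.07 in their mean differences, the transduction genes -0.48 to 1.81 and the receptors -0.30 to 1.50.

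Against Sufu KO cerebellum, tested directly, 12.2% of genes were higher in the tumours and 17.5% lower. Hedgehog targets were higher than in Sufu KO in 11 of 15 and lower in 1 (Hsd11b1), and the receptor list in 7 of 14 and lower in 0. Gli1 read 7.27, 7.23 and 7.23 on the Sufu KO arrays, which is 3.81-fold below the tumours (adjusted p = 1.81e-06). Ccnd1 read 9.07, 9.16 and 9.27 there, 2.50-fold below, and Hhip 6.59, 6.87 and 6.78, 3.63-fold below. Bcl2, level between tumours and wildtype, was 0.56 ± 0.07 higher in the tumours than in Sufu KO (adjusted p = 0.000117). Ccnd2, the cyclin of granule progenitors, was 11.23, 11.20 and 11.08 in Sufu KO, and the tumours differed by 0.32 ± 0.09 (adjusted p = 0.0180) from it and by 2.50 ± 0.09 from wildtype. Igf2, Nkx6-2 and Foxf1 did not pass against Sufu KO.

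Within the granule neuron lineage, the direction of change depended on the stage. The directions cannot check the tumour label, because Sufu KO cerebellum showed the same ones. There the median differences from wildtype were 0.25 for progenitor, 0.54 for newborn and -0.59 for mature granule neuron genes. Of 18 tested genes of the progenitors, 11 were higher and 2 lower in the tumours than in wildtype. Their median was 0.42, and 5 did not pass. Against Sufu KO, 7 of the 18 were higher in the tumours and 4 lower. The members Atoh1 and Olig3 were among the 12 largest rises. Barhl1, a homeobox factor of the lineage, read 8.25, 8.13 and 8.11 in the wildtype and 10.02, 9.76 and 9.66 in the tumours and rose 3.13-fold. Insm1, a zinc finger factor of dividing neuronal precursors, read 8.99, 8.54 and 8.68 against 10.70, 10.58 and 10.55 and rose 3.66-fold (adjusted p = 6.16e-08). Pax6, made by progenitors and by their daughters, rose less (0.42 ± 0.08).

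The Zic family, zinc finger factors of the lineage, did not share a direction. Zic4 was higher, by 0.63, while a dimmer probe set of it did not pass (-0.09). Zic1 did not pass, at -0.02, and Zic2 was lower at -0.34 ± 0.09 (adjusted p = 0.00669). Barhl2, the paralog of Barhl1, was lower at -0.40 ± 0.10 (adjusted p = 0.00441). Zic5 was at 0.18 ± 0.07 with an adjusted p of 0.0485 that ran from 0.00764 to 0.453 over 16 alternatives and missed the threshold in 11 of them, the sex covariate among them. Against Sufu KO, Pax6 (-0.22 ± 0.08) and Zic5 (-0.28 ± 0.07) were lower in the tumours, while Atoh1 (1.91 ± 0.20) and Barhl1 (0.61 ± 0.10) were higher.

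Genes of newborn and migrating granule neurons were mostly higher. Of 25 tested, 16 were higher and 4 lower, with a median of 0.52. Dcc, a netrin receptor of growing axons, read 7.83, 7.42 and 7.85 in the wildtype and 10.84, 10.76 and 10.52 in the tumours, an 8.03-fold rise (adjusted p = 5.96e-09). Igfbpl1 rose 4.68-fold, and the bHLH factor genes Nhlh1 and Nhlh2 4.50-fold and 2.66-fold. The lower members were the bHLH gene Neurod2 (-0.66 ± 0.09), the microtubule regulator gene Stmn2 (-0.58 ± 0.08) and the netrin receptor genes Unc5b (-0.85 ± 0.11) and Unc5c (-0.46).

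Compared directly with Sufu KO, 6 genes of this list were higher in the tumours and 9 lower. Cntn2, an adhesion molecule of newborn granule axons, read 10.68, 10.59 and 10.66 in wildtype, 11.33, 11.37 and 11.29 in Sufu KO and 10.83, 10.88 and 11.05 in the tumours. It was thus above wildtype (0.28 ± 0.07, adjusted p = 0.00682, lost on the arrays with high Xist alone at 0.0774) and below Sufu KO (-0.41 ± 0.07, adjusted p = 0.000999). Dpysl3, of axonal growth cones, showed the same order, 0.62 ± 0.08 above wildtype and -0.36 ± 0.08 against Sufu KO, as did Sema6a, a guidance protein of granule neurons (0.33 ± 0.07 and -0.22 ± 0.07). Over all tested genes, 43 were above wildtype and below Sufu KO in this way, and 9 the reverse.

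Mature granule neuron genes were low. Of 24 tested, 22 were lower, 20 of them by at least 1 log2 unit, with a median of -1.68. Some members are also on other lists, Car8 with Purkinje cells and Snap25 and Syt1 with the release machinery, so the counts overlap. Calb2, the calcium buffer calretinin, read 10.71, 10.87 and 11.15 in the wildtype and 8.70, 8.43 and 8.84 in the tumours, a 4.77-fold fall. Etv1, an ETS factor of maturing granule neurons, fell 3.43-fold, from 11.27, 11.21 and 11.41 to 9.35, 9.46 and 9.74 (adjusted p = 3.70e-08), and Scn1a, a sodium channel, 4.002-fold. The median shift of this list was -1.28 in replicate 3 against -1.88 and -1.81 in replicates 1 and 2. The genes that rose were Uncx (0.50 ± 0.13, lost on the arrays with high Xist alone at 0.0860) and Reln (0.18 ± 0.07, adjusted p from 0.0233 to 0.525 over the alternatives and lost in 9). In the direct test 23 of the 24 were lower in the tumours than in Sufu KO.

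Genes of the division machinery rose together. Of 22 tested G1 cyclins, kinases, E2F factors and related genes, 19 were higher and 0 lower, with a median of 1.28. E2f1, which switches on S phase genes, read 7.51, 7.51 and 7.34 in the wildtype and 9.31, 9.36 and 9.15 in the tumours, a 3.53-fold rise. Ccnb2, a mitotic cyclin, rose 6.42-fold. Of 7 tested inhibitors of cyclin-dependent kinases, 3 were higher and 0 lower. Cdkn2c, which blocks Cdk4 and Cdk6, read 6.61, 6.54 and 6.81 against 8.33, 8.41 and 8.18 and rose 3.14-fold (adjusted p = 9.35e-08). Cdkn3, a phosphatase of these kinases, rose by 0.81 ± 0.12. Cdkn1b rose by 0.39 ± 0.07, a call lost when its probe sets were averaged (adjusted p = 0.324): the other one read -0.05. Cdkn2a (-0.03 ± 0.10), Cdkn2b (0.10 ± 0.08), Cdkn2d (0.04 ± 0.08) and Cdkn1c (-0.03 ± 0.07) did not pass.

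In the Myc network, which couples growth to division, 6 of 12 were higher and 4 lower. The 3 Myc genes all rose. Mycn read 7.69, 7.38 and 7.32 against 10.44, 10.23 and 10.11, Mycl 7.62, 7.43 and 7.26 against 9.07, 9.07 and 8.69 and Myc 6.76, 6.63 and 6.63 against 8.20, 8.13 and 7.77, rises of 6.95-fold, 2.84-fold and 2.57-fold. Their partner gene Max was lower (-0.52 ± 0.08), as were Mxd4 (-0.35 ± 0.08), which competes for Max, and Mlxip (-0.26 ± 0.07). Myc was the member with the largest difference from Sufu KO (1.28 ± 0.13, adjusted p = 3.01e-05), where it read 6.46, 6.86 and 6.94.

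Of 29 tested genes of DNA replication, 29 were higher, with differences from 0.57 to 3.36 and a median of 1.67. Of 39 tested genes of mitosis, 39 were higher, from 0.59 to 3.56, with a median of 2.39. Every tumour array lay above every wildtype array for each of these 68 genes. Mcm2, Mcm5, Mcm6 and Mcm7, subunits of the replicative helicase, rose 5.17-fold, 4.77-fold, 10.2-fold and 6.23-fold. Chaf1b, which loads histones on new DNA, read 6.08, 6.40 and 6.10 in the wildtype and 9.29, 9.26 and 8.79 in the tumours. Ect2, which places the furrow of the dividing cell, read 6.62, 6.50 and 6.58 against 9.86, 9.84 and 9.37 and rose 8.73-fold (adjusted p = 5.26e-09). In the direct test, 28 of the 29 and 39 of the 39 were also higher in the tumours than in Sufu KO, with median differences of 0.76 and 0.90.

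The promoters of these lists were searched for letters known from promoters of the cell cycle. The lists are of cell cycle genes, so their shares of these letters do not depend on the differences measured here. The E2F motifs were spelled TTTGGCGC and TTTCCCGC, the CHR motif TTTGAA and the CCAAT box CCAAT, on both strands of windows from 250 bases before to 50 after each start (RefSeq, GRCm38.p6). Among the tested replication genes, 23 had 1 or more windows, 27 in all. TTTGGCGC lay in 6 of the 27 (22.2%, against 0.514% of 32851 windows of all genes), and TTTCCCGC in 5 (18.5%, against 1.07%). Among the tested mitosis genes, 34 had 39 windows, of which 28 held TTTGAA (71.8%, against 17.9%), 30 held CCAAT (76.9%, against 37.4%) and 24 held both (61.5%, against 6.95%). For the tested Hedgehog targets, 9 had 12 windows and 0 of them held the Gli motif GACCACCCA, which lies in 0.253% of all windows. A match is a string of letters and was not read as a bound site.

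The 250 bases before the start are given for 6 genes that rose, 3 per group, to show these letters in place. The 6 were picked among members that hold the motifs there, both kinds for mitosis. Each stretch runs 5′ to 3′ on the strand of the gene, with matches in capitals. For the replication genes the capitals mark E2F motifs, in Mcm5 (chr8:75109259-75109508, plus strand, TTTGGCGC read on the opposite strand), Mcm6 (chr1:128359706-128359955, minus strand, TTTGGCGC at 2 places) and Mcm7 (chr5:138171884-138172133, minus strand, TTTCCCGC read on the opposite strand). For the mitosis genes they mark CHR and CCAAT motifs, in Ect2 (chr3:27153879-27154128, minus strand, with 1 CHR and 2 CCAAT motifs), Kif11 (chr19:37376132-37376381, plus strand, both read on the opposite strand) and Mki67 (chr7:135716380-135716629, minus strand, with 2 CHR and 3 CCAAT motifs).
Mcm5: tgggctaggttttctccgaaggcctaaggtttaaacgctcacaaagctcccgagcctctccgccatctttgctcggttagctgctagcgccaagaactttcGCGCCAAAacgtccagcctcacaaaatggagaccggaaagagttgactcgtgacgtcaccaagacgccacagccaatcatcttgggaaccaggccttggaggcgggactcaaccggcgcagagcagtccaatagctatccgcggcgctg
Mcm6: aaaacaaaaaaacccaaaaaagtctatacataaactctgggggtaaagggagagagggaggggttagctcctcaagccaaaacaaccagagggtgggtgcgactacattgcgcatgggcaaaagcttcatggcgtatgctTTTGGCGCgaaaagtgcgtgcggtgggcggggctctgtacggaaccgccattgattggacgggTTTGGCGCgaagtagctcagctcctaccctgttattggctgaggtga
Mcm7: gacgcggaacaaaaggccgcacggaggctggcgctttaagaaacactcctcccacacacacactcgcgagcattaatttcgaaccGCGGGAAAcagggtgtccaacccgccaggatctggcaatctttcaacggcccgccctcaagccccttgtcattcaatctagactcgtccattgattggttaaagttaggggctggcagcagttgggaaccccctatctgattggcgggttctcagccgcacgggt
Ect2: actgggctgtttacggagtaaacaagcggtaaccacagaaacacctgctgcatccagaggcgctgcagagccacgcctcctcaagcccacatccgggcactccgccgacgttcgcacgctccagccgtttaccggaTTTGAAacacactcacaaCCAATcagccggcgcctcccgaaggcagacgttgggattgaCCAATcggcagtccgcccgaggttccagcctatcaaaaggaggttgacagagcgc
Kif11: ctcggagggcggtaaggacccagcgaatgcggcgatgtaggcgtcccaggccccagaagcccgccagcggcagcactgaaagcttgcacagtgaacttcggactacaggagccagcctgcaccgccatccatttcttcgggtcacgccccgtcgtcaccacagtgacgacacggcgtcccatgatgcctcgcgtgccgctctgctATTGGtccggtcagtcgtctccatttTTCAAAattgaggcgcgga
Mki67: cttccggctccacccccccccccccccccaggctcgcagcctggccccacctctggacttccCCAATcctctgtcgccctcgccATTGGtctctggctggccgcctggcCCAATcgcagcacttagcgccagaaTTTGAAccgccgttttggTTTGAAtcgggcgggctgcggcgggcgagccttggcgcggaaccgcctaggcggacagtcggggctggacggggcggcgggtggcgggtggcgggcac

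Repair genes rose with replication. Of 19 tested genes of homologous recombination and the Fanconi pathway, 19 were higher (median 1.34), and 18 also exceeded Sufu KO. Exo1, a nuclease that trims broken ends, read 6.01, 6.12 and 5.86 in the wildtype and 8.27, 8.53 and 8.02 in the tumours, a 4.85-fold rise, and Fancd2, the hub of crosslink repair, rose 4.28-fold. Fanca, of the complex that activates Fancd2, rose 2.19-fold, and Rad54l, a motor of strand exchange, 3.13-fold.

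Targets of p53, the damage response factor, did not share a direction: 4 of 15 tested were higher and 6 lower, with a median of -0.02. Eda2r, a death receptor, read 5.68, 5.67 and 5.27 against 7.55, 7.57 and 7.02 and rose 3.58-fold. Trp53inp1 (0.80 ± 0.08) and Gadd45a (0.41 ± 0.07), stress response genes, were higher, while Perp (-0.66 ± 0.08) and Zmat3 (-0.46 ± 0.07), which promote cell death, were lower. In the Bcl2 family of death regulators, 4 of 14 were higher and 2 lower. Bok, which promotes death, rose by 1.09 ± 0.11 and Bid, another such gene, by 0.69 ± 0.09. The protective Mcl1 was higher (0.30 ± 0.08) and the protective Bcl2l2 lower (-0.29 ± 0.06). Bcl2l1 was lower at -0.27 ± 0.08, and its call was lost in 4 of the 6 settings that left out a wildtype or tumour replicate (adjusted p from 0.00442 to 0.0839 over the alternatives).

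Genes that supply building blocks rose as well. Of 24 tested enzymes of nucleotide and one-carbon synthesis, 21 were higher and 0 lower (median 0.80). Rrm2 and Rrm1, the subunits of ribonucleotide reductase, rose 6.14-fold and 3.96-fold, with Rrm2 at 6.86, 6.84 and 6.66 in the wildtype and 9.42, 9.70 and 9.11 in the tumours. Tyms, which makes thymidylate, rose 3.96-fold and Atic, of purine synthesis, 2.72-fold. Of 23 tested genes of ribosome biogenesis, 22 were higher (median 0.69). The smallest p values were those of the box C/D protein gene Nop58 (2.87-fold), the pseudouridine synthase gene Dkc1 (2.64-fold) and the nucleolar genes Npm1 (2.29-fold) and Ncl (1.89-fold).

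Genes of energy metabolism were lower. Of 17 tested glycolysis genes, 13 were lower and 2 higher, with a median of -0.75. Eno2, the neuronal enolase, read 11.58, 11.78 and 11.87 in the wildtype and 9.11, 9.33 and 9.73 in the tumours, a 5.10-fold fall. Aldoa and Aldoc, the muscle-type and brain-type aldolases, fell 2.38-fold and 2.44-fold. The higher members were hexokinases, which trap glucose in the cell. Hk2, the regulated form, read 7.13, 7.20 and 6.99 against 8.58, 8.68 and 8.42 and rose 2.74-fold (adjusted p = 8.51e-08), also above Sufu KO (1.29 ± 0.09), where it read 7.36, 7.15 and 7.31.

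The direction for Hk1 depended on the probe set. The brightest probe set was higher by 0.37 ± 0.08 (adjusted p = 0.00197), while a dimmer one was lower at -1.09 (adjusted p = 2.55e-06), and the mean of both was lower. Both are given because the call turns with the choice. Of 35 tested subunits of the respiratory chain, 30 were lower and 0 higher, with a narrow range from -0.86 to 0.13 and a median of -0.40. Cox6a1 (-0.82 ± 0.11) and Cox4i1 (-0.66 ± 0.08), of complex IV, and Ndufa4 (-0.79 ± 0.09) and Ndufb9 (-0.63 ± 0.08), known from complexes IV and I, had the smallest p. With the sex covariate 23 of the 35 were lower.

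Genes of cholesterol synthesis were below Sufu KO in the tumours, and Sufu KO was itself above wildtype (median difference 0.26). Against wildtype, 8 of 18 tested genes were lower in the tumours and 2 higher (median -0.16). Against Sufu KO, 17 of 18 were lower (median -0.40). Fdft1, the squalene synthase, read 10.02, 10.01 and 10.17 in wildtype, 10.79, 10.94 and 10.89 in Sufu KO and 10.48, 10.40 and 10.49 in the tumours. It was above wildtype (0.39 ± 0.07) and below Sufu KO (-0.42 ± 0.07, adjusted p = 0.000832). Hsd17b7 was higher by 0.36 ± 0.06, and Ebp (-0.89 ± 0.08), Sc5d (-0.55 ± 0.07) and Dhcr7 (-0.41 ± 0.08), late enzymes of the path, were lower. The call of Dhcr7 was lost on the arrays with high Xist alone (adjusted p = 0.0515).

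Of 22 tested genes of polycomb, DNA methylation and related chromatin, 15 were higher and 5 lower (median 0.37). Hells, a remodeller needed for DNA methylation, read 5.98, 5.71 and 5.73 in the wildtype and 8.38, 8.55 and 7.96 in the tumours, a 5.61-fold rise. Uhrf1, which guides maintenance methylation, rose 4.73-fold, Lmnb1, of the nuclear lamina, 3.87-fold, and Ezh2, the polycomb methyltransferase, 2.86-fold. Dnmt3a, the methyltransferase of neurons, was lower at -0.62 ± 0.06, as were the polycomb genes Cbx7 (-0.43 ± 0.07) and Jarid2 (-0.28 ± 0.07).

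The BAF remodelling complex exchanges subunits when neurons leave the cell cycle. Of 5 progenitor subunits tested, 4 were higher: Actl6a (1.45 ± 0.08), Smarcc1 (1.43 ± 0.09), Phf10 (0.53 ± 0.08) and Ss18 (0.43 ± 0.09, lost on the arrays with high Xist alone, adjusted p = 0.0534), while Dpf2 was at 0.05 ± 0.06. Of 6 neuronal or later subunits, 3 were lower: Smarcd3 (-0.80 ± 0.11), Dpf3 (-0.67 ± 0.09) and Actl6b (-0.32 ± 0.09). Dpf1 (-0.17 ± 0.08), Smarcc2 (-0.04 ± 0.07) and Ss18l1 (0.09 ± 0.07) did not pass. Actl6a, for example, read 9.03, 8.88 and 8.95 in the wildtype and 10.48, 10.48 and 10.25 in the tumours, and its neuronal counterpart Actl6b 9.28, 9.27 and 9.37 against 8.89, 8.86 and 9.20, where replicate 3 lay close to the wildtype.

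Of 19 tested RNA-binding and splicing factors, 8 were higher and 4 lower. Ptbp1, the splicing repressor of non-neuronal cells, read 8.98, 8.83 and 8.82 in the wildtype and 10.29, 10.24 and 9.79 in the tumours and rose 2.34-fold (adjusted p = 2.77e-06). Khdrbs3 rose 2.43-fold and Elavl2, of early neurons, 2.27-fold. The 4 lower members were Rbfox1 at -0.94, Rbfox3, the antigen NeuN, at -0.74, Celf4 at -0.54 and Khdrbs2 at -0.32 (log2 differences). Other splicing factors of neurons did not follow them: Nova2 (0.41, lost on the arrays with high Xist alone at 0.109) and Celf2 (0.39) were higher, and Nova1, Rbfox2, Srrm4, Elavl3 and Elavl4 did not pass. Nova1 passed as higher with quantile normalization and Elavl4 as lower without wildtype replicate 2.

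Receptors and channels of mature neurons were low. Of 10 tested GABA-A receptor subunits, 9 were lower and 0 higher (median -0.64). Gabra6, the subunit of granule neurons, read 11.93, 11.90 and 12.09 in the wildtype and 9.46, 9.58 and 10.36 in the tumours, a 4.51-fold fall, and Gabrb2 and Gabrd fell 3.32-fold and 2.57-fold. Replicate 3 kept more of Gabra6 than the other tumours did. Gabrb1, also lower against wildtype (-0.79 ± 0.09), was at -0.19 ± 0.09 against Sufu KO (adjusted p = 0.168).

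Of 5 tested NMDA receptor subunits, 3 were lower and 0 higher. The late subunit gene Grin2c read 9.60, 9.72 and 9.70 against 7.43, 7.60 and 8.27 and fell 3.76-fold, and Grin2a fell 3.79-fold. The early subunit gene Grin2b did not pass (0.14 ± 0.12, adjusted p = 0.379), and it was lower than in Sufu KO (-0.57 ± 0.12), where it read 9.96, 9.89 and 9.93. It passed as higher without wildtype replicate 1 (adjusted p = 0.0345). Grin2d was lower (-0.80 ± 0.07) and Grin3a did not pass (0.13 ± 0.10). Of 16 AMPA, kainate and metabotropic receptor genes, 12 were lower and 0 higher, among them Grm4 (-1.93), Gria3 (-0.98), Grm8 (-0.89) and Grm7 (-0.83, log2 differences).

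Of 33 tested potassium channel genes, 25 were lower and 3 higher (median -0.99). Dpp10, an auxiliary subunit of A-type channels, read 9.57, 9.64 and 9.49 in the wildtype and 6.95, 7.39 and 7.35 in the tumours, a 5.04-fold fall. Kcnip1 fell 3.20-fold and Kcnab1 2.96-fold. The risers were Kcnh7 (0.97 ± 0.11), Kcnq5 (0.85 ± 0.10) and Kcnj10 (0.27 ± 0.10, adjusted p from 0.0194 to 0.171 over the alternatives and lost in 9). Of 20 sodium and calcium channel genes, 15 were lower, those with the smallest p being Cacna2d2 (-1.75), Scn1a (-2.001), Cacnb4 (-1.87) and Scn2b (-2.03), and 2 were higher, Cacna2d1 (0.62 ± 0.09) and Scn3a (0.54 ± 0.10), a channel of immature neurons.

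The release machinery was lower in 22 of 24 tested genes and higher in 0 (median -1.12), and 24 of 24 were lower than in Sufu KO, where the median difference from wildtype was -0.25. Syt2, a calcium sensor of release, read 9.37, 9.60 and 9.65 in wildtype, 8.91, 9.02 and 8.85 in Sufu KO and 7.35, 7.64 and 7.73 in the tumours. Doc2b, another calcium sensor, fell 3.28-fold, Rph3a, a vesicle effector, 3.22-fold and Sv2a, a vesicle glycoprotein, 2.73-fold. Of 21 tested postsynaptic genes, 16 were lower and 0 higher (median -0.63), with Camk2a 3.81-fold, Shank1 2.89-fold, Dlg4 1.84-fold and Dlg1 1.72-fold lower.

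Of 35 tested axon guidance genes, 9 were higher and 15 lower (median -0.13). Beside Dcc, the risers included Plxnb2 (0.97 ± 0.08), a semaphorin receptor of granule progenitors, and Robo1 (0.74 ± 0.08), a receptor for Slit proteins. Plxna4 (-1.65 ± 0.09) and Plxna1 (-1.05 ± 0.08), other semaphorin receptors, were lower. Of 17 Wnt modulators and targets, 4 were higher and 4 lower, shares near those over all tested genes (22.1% and 24.7%). The secreted antagonist gene Sfrp2 read 6.59, 6.37 and 6.80 in the wildtype and 9.42, 9.41 and 8.55 in the tumours, a 5.83-fold rise, while the antagonist genes Wif1 (-1.10 ± 0.19), Frzb (-0.98 ± 0.12) and Dkk3 (-0.29 ± 0.08, lost without tumour replicate 1 at 0.0550) were lower.

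In the Notch pathway, 9 of 20 were higher and 4 lower. Jag1, a ligand, read 6.33, 6.44 and 6.24 against 7.43, 7.90 and 7.15 and rose 2.23-fold, and Hes6, which counters Notch, rose by 0.51 ± 0.08. Hey2 (-0.72 ± 0.08), a target, Rfng (-0.56 ± 0.07), which modifies Notch, and Notch3 (-0.25 ± 0.06), the receptor of mural cells, were lower. On the arrays with high Xist alone, Notch3 lost its call (adjusted p = 0.0608) and 2 members in all were lower.

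Of 14 insulin-like growth factor genes, 5 were higher and 4 lower, and 8 were higher without tumour replicate 3. Irs1, an adaptor of the receptor, read 8.59, 8.48 and 8.54 in the wildtype and 10.23, 10.29 and 9.58 in the tumours, a 2.82-fold rise, with replicate 3 the lowest tumour; a dimmer probe set of it did not pass (0.27, adjusted p = 0.0712). Igfbp2 was higher (0.74 ± 0.10), and Igfbp5 (-1.26 ± 0.10), Igfbp7 (-0.42 ± 0.06) and Igf2r (-0.36 ± 0.07), which bind or clear the factors, were lower. In the BMP pathway, 4 of 23 were higher and 7 lower, again near the shares over all tested genes. The ligand gene Gdf10, made by Bergmann glia, fell 3.99-fold, and Bmp6 (-0.97 ± 0.09) and the inhibitor gene Smad7 (-1.02 ± 0.07) were lower. The receptor gene Bmpr1a (0.63 ± 0.08) and the mediator gene Smad5 (0.41 ± 0.08) were higher. Bmp5 read 9.20, 8.61 and 8.77 in the tumours, above 8.23, 8.06 and 8.12 in the wildtype (0.73 ± 0.12) and below Sufu KO (-0.49 ± 0.12).

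Markers of other cell types were then read for the make-up of the tissue. Some genes, such as Car8, Gad1 and Sox10, are on several lists, so the lists are not independent. Purkinje cell genes were lower in 15 of 19 tested (median -1.29). Ppp1r17, a phosphatase inhibitor of these cells, read 9.88, 9.83 and 9.99 in the wildtype and 7.27, 7.69 and 7.46 in the tumours, a 5.37-fold fall. Car8, Calb1 and Pcp2, calcium and signal regulators of Purkinje cells, fell 4.09-fold, 3.65-fold and 3.46-fold. The genes that rose are transcription factors of development: Foxp2, at 8.50, 8.77 and 8.35 against 7.07, 6.93 and 7.01, rose 2.90-fold and Lhx1 2.10-fold. Foxp2 also exceeded Sufu KO (1.34 ± 0.10, adjusted p = 4.30e-06), where it read 7.19, 7.10 and 7.30.

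Genes of GABAergic interneurons were lower in 15 of 15 tested (median -1.35). Pvalb, parvalbumin, fell 5.59-fold, Tfap2b, an interneuron transcription factor, 3.98-fold, Gad1, which makes GABA, 3.81-fold and Prkcd, a kinase, 3.22-fold. Of 4 tested genes of unipolar brush cells, Eomes was lower (-1.10 ± 0.11), Otx2, shared with progenitors of the posterior cerebellum, higher (0.89 ± 0.12), and Plcb1 (-0.19 ± 0.09) and Sln (-0.07 ± 0.09) did not pass.

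Glial lists diverged. Mature oligodendrocyte genes were lower in 15 of 15 tested (median -2.004), the lowest list median in the tumours. Beside Mag, the myelin genes Mog and Mal fell 5.08-fold and 4.91-fold, and Cldn11, of myelin tight junctions, 4.99-fold, from 10.79, 11.16 and 10.91 to 8.67, 8.42 and 8.81. The list's summed linear level was 4121 to 5173 on the tumour arrays against 15773 to 18788 on the wildtype arrays, and its part in the differences of other genes was not tested. Genes of oligodendrocyte precursors were higher in 5 of 11 and lower in 2, and 8 of 11 exceeded Sufu KO.

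Pdgfra, a growth factor receptor that marks such precursors, read 8.17, 8.03 and 7.87 in the wildtype and 10.50, 10.45 and 10.22 in the tumours, a 5.15-fold rise. C1ql1, which precursors and neurons make, rose 4.75-fold and Lhfpl3 by 0.68 ± 0.08. Sox10, which precursors share with mature cells, was lower (-0.31 ± 0.09), a call lost without wildtype replicate 2 or tumour replicate 2. Enpp6, of newly formed oligodendrocytes, was lower at -1.20 ± 0.21.

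Bergmann glia and astrocyte genes were lower in 16 of 20 tested and higher in 1 (median -0.83). Hopx, a homeodomain gene, fell 2.58-fold and Timp4, a protease inhibitor, 2.69-fold. The higher member was Slc6a11, a GABA transporter gene, at 11.12, 10.98 and 11.25 against 9.70, 9.99 and 9.62, 2.54-fold higher and also above Sufu KO (0.80 ± 0.12).

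Microglia and macrophage genes were higher in 10 of 19 tested and lower in 1 (median 0.29). Lyz2, lysozyme of macrophages, read 5.94, 6.03 and 6.14 in the wildtype and 7.52, 8.59 and 8.14 in the tumours, a 4.13-fold rise with a tumour SD of 0.54. C1qb and C1qc, complement subunits, rose 2.35-fold and 1.86-fold, and Cd68, a lysosomal protein of phagocytes, 2.04-fold. Markers of resident microglia did not share a direction: Cx3cr1 was higher (0.52), P2ry12 (-0.02) and Tmem119 (-0.03) did not pass, and Siglech was lower (-0.28 ± 0.07, lost on the arrays with high Xist alone at 0.0755). In the whole list replicate 3 was the furthest of the tumours from the wildtype: the list's median shift was 0.57 in replicate 3 against 0.21 and 0.28 in replicates 1 and 2. Of 6 tested lymphocyte genes, 0 were called by limma, with differences of 0.14 ± 0.08 for Cd4, 0.07 ± 0.07 for Cd2, 0.07 ± 0.10 for Cd79b and 0.19 ± 0.10 for Ptprc. The list's summed linear level was 413 to 430 in the tumours and 372 to 427 in the wildtype. The T cell genes Cd3d and Cd3g and the B cell genes Cd79a and Ms4a1 were too dim to test.

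Vascular genes were lower in 12 of 19 tested, with a shallow median of -0.31. Abcb1a, a transporter of the blood-brain barrier, was at -0.60 ± 0.06, Esam, of endothelial junctions, at -0.54 ± 0.08, Pdgfrb, of pericytes, at -0.43 ± 0.06 and Vtn at -0.76 ± 0.12. Against Sufu KO, 2 of the 19 were lower and 1 higher, and Vtn differed by -0.01 ± 0.12. The riser was Cspg4 (0.34 ± 0.09), which pericytes share with oligodendrocyte precursors. Meningeal genes were lower in 6 of 14, including Ranbp3l (-0.77 ± 0.09) and Slc6a13 (-0.45 ± 0.08), and higher in 3, namely Pdgfra, Igfbp2 and Lum (0.43 ± 0.10).

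Choroid plexus genes were higher in 3 of 10 (Clic6, 1.06 ± 0.13, Kl, 0.37 ± 0.10, and Otx2) and lower in 0, while their summed level overlapped between groups, at 2052 to 3396 in the tumours and 1050 to 2262 in the wildtype. With the sex covariate 5 of the 10 were higher. Of 9 brainstem and midbrain genes, Slc17a6, a vesicular glutamate transporter, was higher (1.15 ± 0.08) and Ddc, of monoamine synthesis, lower (-0.63 ± 0.07). Of 2 tested red cell genes, Alas2 was lower (-0.38 ± 0.13, adjusted p from 0.00709 to 0.147 over the alternatives) and Slc4a1 did not pass (-0.13 ± 0.06).

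**Figure D4:**
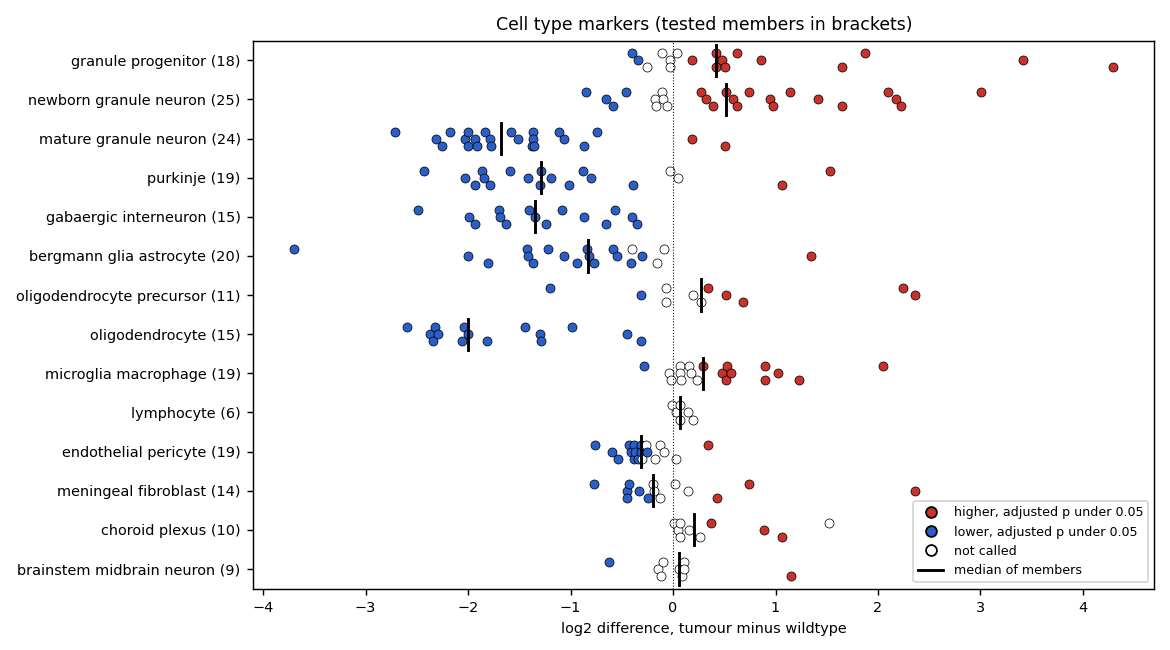
Log2 difference of the tumours from wildtype (horizontal axis) for the tested markers of 14 cell types or stages, 1 point per gene, coloured by direction where the limma adjusted p was under 0.05, with a black bar at the median of the members. The medians run from -2.004 for oligodendrocytes to 0.52 for newborn granule neurons, and the lymphocyte points lie near 0.

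The 49 lists were also read by array. With the sex covariate, 28 of the 49 lists kept both their counts and 45 were within 1 gene; the respiratory chain changed most, by 7. Without tumour replicate 3, 29 kept both counts and 45 were within 1 gene. Replicate 3 stood nearest to the wildtype among the tumours for mitosis (2.16 against 2.66 and 2.49) and for mature granule neurons, while glycolysis stood at -0.73, -0.76 and -0.70 in replicates 1, 2 and 3.

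**Figure D5:**
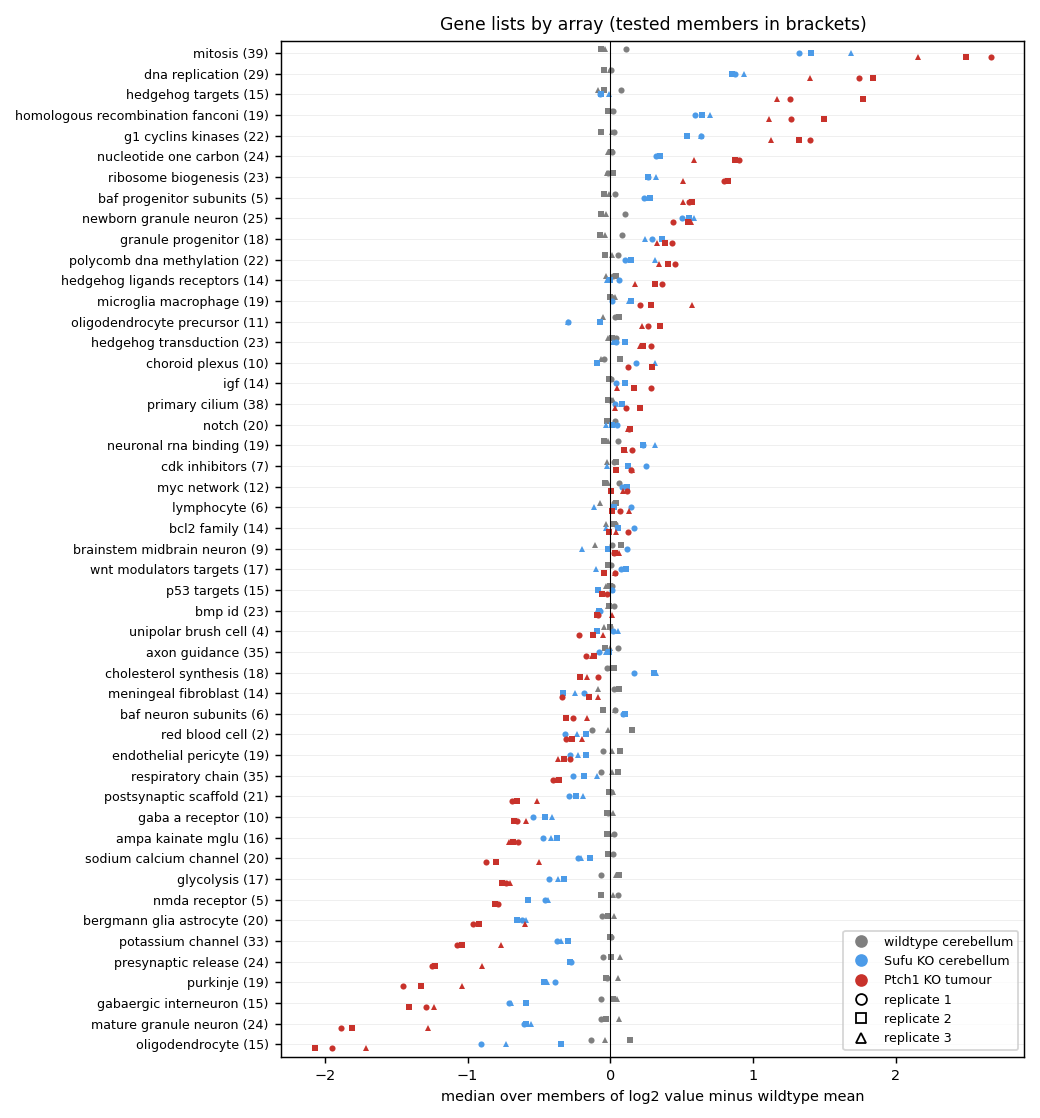
Median over the tested members of each of 49 gene lists of the log2 value minus the wildtype mean (horizontal axis), 1 point per array, with colour for the group and shape for the replicate. Tumour arrays lie furthest right for mitosis (2.16 to 2.66) and furthest left for oligodendrocyte genes (-1.71 to -2.07), and Sufu KO arrays lie between tumour and wildtype for both.

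In the direct test over all genes, 1991 were higher and 2855 lower in the tumours than in Sufu KO. Of the genes called against wildtype, 1803 were higher and 2497 lower than in both other groups, and those comparisons share the tumour arrays. Glycolysis was lower than in Sufu KO in 11 of 17, potassium channels in 25 of 33 and the respiratory chain in 12 of 35.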

How the data were processed

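Total RNA of 9 samples was labelled and hybridised to Affymetrix Mouse Gene 1.0 ST arrays, per the labels' protocols. The authors deposited log2 values per probe set for each array. For the background correction, normalization and summary, a method is not given in the sources used here; log base 2 was taken from the range of the values. Probe sets were named through the platform annotation: 21789 listed 1 gene, 1621 several and 12146 none.

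Genes were tested where 3 or more arrays had their probe set above that array's 25th percentile (16323 genes). One limma fit (version 3.58.1, R 4.3.3) with the 3 groups over 9 arrays gave tumour minus wildtype and tumour minus SufuKO, with Benjamini-Hochberg adjustment and a threshold of 0.05. The fit was tested on simulated data. The text names all Hedgehog receptors, transduction genes and targets; the 12 largest rises and falls; in each gene list up to 4 members of smallest p, up to 3 against the list's direction and up to 3 with opposite calls against SufuKO; and every member of lists of 8 or fewer. Zic1, Zic4, Unc5c, Khdrbs2, Nova1, Nova2, Celf2, Rbfox2, Srrm4, Elavl3, Elavl4, Cx3cr1, P2ry12 and Tmem119 were named after their values were seen. The 12 largest rises and falls were taken among called genes whose tumour and wildtype arrays did not overlap, without placeholder names. Promoter windows came from RefSeq (GRCm38.p6). The 3 arrays per group limit the precision. Members and lists were chosen with earlier results of these data known. Alternatives covered the arrays in the fit, the filter, scaling, probe set choice, sex, the replicate block and each left-out array.

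Replicate numbers are shared between groups, but same-numbered wildtype and tumour arrays did not deviate together (correlations of their deviations from the group means 0.12, -0.11 and -0.07), so the numbers were not taken to pair the samples.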

Additional observations from a re-analysis of the deposited data

How the results depend on the processing

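The 3606 genes higher and 4038 lower in the tumours than in wildtype stayed within 1.5 times those counts under each of the 16 alternatives. With arrays left out in turn, 3107 to 3711 were higher and 3583 to 3949 lower, and against Sufu KO 1444 to 2297 were higher and 2251 to 2832 lower. Of the 7644 called genes, 6847 kept their call and direction with the sex covariate, 6313 on the arrays with high Xist alone (an alternative chosen after seeing the data, with 1 tumour) and 7248 without tumour replicate 3. With the replicate block, 3530 were higher and 3990 lower than in wildtype, and 1877 and 2749 than in Sufu KO. Of 308 named genes, the block cost the calls of Cdon and Zic5.

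Directions turned for 2 genes. Hk1 read -0.36 (limma adjusted p = 0.00084) when its probe sets were averaged, because they differ in sign. Xist read 0.33 (adjusted p = 0.0131) with the sex covariate, which was built from it, and 0.31 (adjusted p = 0.0395) on the arrays with high Xist alone. Among the gene lists, the choroid plexus count rose from 3 to 5 with the sex covariate, and lists with 1 or 2 members called one way changed most in proportion, in Cdon, Reln, Bcl2l1, Hk1 and Sox10. The cause was not tested.

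Each group had 3 arrays, and sex, tumour replicate 3 and genotype cannot be fully separated. The normalization is unknown, so a shift shared by all genes of a group would not be seen. Differences of dim probe sets are compressed towards 0 by background, and members below the filter were not tested. Genes read by probe sets that match several genes, among them Gapdh and the haemoglobins, were not analysed here.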

Other observations

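The genes that varied most among the 3 tumours, outside the sex-linked ones, were of a few loci. Cwc22, a splicing factor gene, read 10.29, 8.43 and 8.27 in tumour replicates 1, 2 and 3, 10.94, 10.28 and 10.81 in the wildtype, and 8.21, 8.18 and 10.31 in Sufu KO. Its arrays therefore fell on a high and a low level within both mutant groups. The levels went with those of Xist on the Sufu KO arrays but not on tumour replicates 1 and 2. The call of Cwc22 was lost in 5 of 16 alternatives, the sex covariate among them (limma adjusted p = 0.15). The gene has 8 probe sets of its own, and ranks 2 to 7 of them gave the same difference of -1.68. 4930578G10Rik read 5.17, 7.73 and 8.04 in the tumours, 8.88, 8.75 and 8.89 in the wildtype and 9.39, 9.40 and 9.27 in Sufu KO, so that replicate 1 stood lowest. Its call (limma adjusted p = 0.0120) was lost with the sex covariate (adjusted p = 0.0720). Hfm1, a meiotic helicase gene, read 5.28, 6.46 and 7.15 in the tumours and 6.01, 5.42 and 5.14 in the wildtype.

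The Y-linked genes Eif2s3y, Kdm5d and Uty were high on tumour replicates 1 and 3 (8.96 and 8.69 for Eif2s3y) and low on replicate 2 (3.97) and on the wildtype arrays (3.91, 3.94 and 4.21). Sufu KO replicates 1 and 2 were also high for Eif2s3y, at 8.69 and 8.96, and replicate 3 was low at 3.99. These are the arrays on which Xist was low and high in turn.

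Probe sets outside the gene table moved too. Of 1621 annotated to several genes, 427 were higher and 137 lower in the tumours than in wildtype, and 90 and 19 by at least 1 log2 unit. Of 12146 with no gene listed, 1024 were higher and 1203 lower, and 123 and 256 by at least 1. Of the 21789 of 1 gene, 3817 were higher and 4175 lower, and 647 and 718 by at least 1.

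Other probe sets of named genes mostly gave the same direction. Gabrb2 read -1.97 and -1.95 on its dimmer ones, Etv1 -1.90, Ptbp1 1.47, Fdft1 0.35, Cacna2d1 0.82, Kif7 0.29 and Zic5 0.21. Hk1, Cdkn1b and Zic4 had probe sets of opposite sign.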
